A study of Homo sapiens with 8 samples.

Results

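Mitochondrial ribosomal protein genes are the nuclear genes for the protein subunits of the ribosome inside mitochondria. They were taken from the deposited count table by symbol, as every row named MRPL or MRPS with a number and, in some cases, a letter A, B or C. The rule found 78 of 57169 rows, all protein coding in GENCODE release 29 and spread over 21 chromosomes, and all 78 were among the 21378 genes with enough counts to be tested. By the subunit their proteins are assigned to, 51 belong to the large subunit and 26 to the small subunit. Of the large subunit genes, 30 are classed as having a bacterial homologue and 21 as specific to mitochondrial ribosomes (16 and 10 in the small subunit). The remaining gene, MRPS36, keeps its ribosomal name although its protein is now assigned to the 2-oxoglutarate dehydrogenase complex.

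RNA was sequenced from HCT116 and SW620, established human colorectal carcinoma lines, 24 hours after treatment with 5-fluorouracil (5-FU), the inhibitor of thymidylate synthase, or with AFZC, as the labels name the second agent. The series title describes a nanodrug in which a metal-organic framework with an aptamer carries 5-FU. The 4 groups were HCT116 with 5-FU, HCT116 with AFZC, SW620 with 5-FU and SW620 with AFZC, with 2 libraries each and each agent at its IC50 dose for the line. No untreated cells were analysed here, so a treatment effect means AFZC relative to 5-FU.

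As background, the mitochondrial ribosome translates the few mRNAs of the mitochondrial genome, which encode core subunits of the respiratory chain and of ATP synthase. Its RNAs are transcribed in the organelle, while every protein subunit is made in the cytosol and imported, so the nuclear genes must supply many proteins for each particle. ETS family proteins such as GABPA, NRF1 and YY1 are known activators of nuclear genes for mitochondrial proteins.

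RefSeq promoters (GRCh38.p14, 250 bases before to 50 bases after the start) were matched for 69 of the 78 members. MRPL2, MRPL10, MRPL13, MRPL15, MRPL21, MRPL23, MRPL35, MRPS28 and MRPS36 had no entry. The next lines print 7 of them 5′ to 3′ on the gene's strand, with matches to 5 motifs, on either strand, in capitals: CGCATGCG (core of the NRF1 motif), CCGGAAG (ETS family), AAGATGGC (YY1), CACGTG (E box) and GGGCGG (SP family). MRPL49 and MRPL27 are shown as the members that rose in HCT116, MRPL30 and MRPL3 as members that fell in SW620, MRPL57 as a promoter with no match, MRPL51 as one with both an ETS and a YY1 match, and MRPS6 for the largest difference between the lines.
MRPL49, chr11:65121933-65122232, plus strand: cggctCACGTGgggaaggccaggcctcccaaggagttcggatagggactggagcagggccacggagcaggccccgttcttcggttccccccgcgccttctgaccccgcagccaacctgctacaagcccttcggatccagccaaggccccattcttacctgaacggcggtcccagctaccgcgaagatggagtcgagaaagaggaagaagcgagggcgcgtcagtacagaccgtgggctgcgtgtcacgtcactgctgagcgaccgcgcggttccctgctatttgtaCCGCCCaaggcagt
MRPL27, chr17:50373135-50373434, minus strand: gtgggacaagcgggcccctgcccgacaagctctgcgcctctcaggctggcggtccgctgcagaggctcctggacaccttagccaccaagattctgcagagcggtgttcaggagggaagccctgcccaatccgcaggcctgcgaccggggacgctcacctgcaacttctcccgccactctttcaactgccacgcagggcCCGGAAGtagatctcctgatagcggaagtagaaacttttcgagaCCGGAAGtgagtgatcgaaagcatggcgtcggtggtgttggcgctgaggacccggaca
MRPL30, chr2:99180934-99181233, plus strand: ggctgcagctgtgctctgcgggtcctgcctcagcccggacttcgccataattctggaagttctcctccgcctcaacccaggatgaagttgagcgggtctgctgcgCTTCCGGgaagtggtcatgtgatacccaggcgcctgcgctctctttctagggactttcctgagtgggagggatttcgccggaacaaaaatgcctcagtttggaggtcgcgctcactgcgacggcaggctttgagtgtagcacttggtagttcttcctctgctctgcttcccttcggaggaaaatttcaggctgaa
MRPL3, chr3:131502922-131503221, minus strand: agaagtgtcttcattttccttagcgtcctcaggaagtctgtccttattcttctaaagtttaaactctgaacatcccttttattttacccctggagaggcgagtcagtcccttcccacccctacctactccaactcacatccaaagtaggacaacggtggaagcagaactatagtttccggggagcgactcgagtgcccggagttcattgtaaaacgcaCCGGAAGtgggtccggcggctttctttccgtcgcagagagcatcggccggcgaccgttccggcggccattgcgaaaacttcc
MRPL57, chr13:21176408-21176707, plus strand: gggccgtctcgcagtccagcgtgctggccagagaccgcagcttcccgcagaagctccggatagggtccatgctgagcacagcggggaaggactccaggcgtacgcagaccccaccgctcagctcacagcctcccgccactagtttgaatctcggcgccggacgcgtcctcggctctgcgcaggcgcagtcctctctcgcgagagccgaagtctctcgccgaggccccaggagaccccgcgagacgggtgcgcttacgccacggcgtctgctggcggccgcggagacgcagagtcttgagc
MRPL51, chr12:6493213-6493512, minus strand: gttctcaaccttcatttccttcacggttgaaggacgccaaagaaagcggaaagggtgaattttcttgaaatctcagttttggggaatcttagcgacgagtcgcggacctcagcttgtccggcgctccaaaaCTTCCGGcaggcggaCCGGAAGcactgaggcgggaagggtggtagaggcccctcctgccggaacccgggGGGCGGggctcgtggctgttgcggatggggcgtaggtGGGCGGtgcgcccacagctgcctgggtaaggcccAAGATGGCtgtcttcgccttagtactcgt
MRPS6, chr21:34073328-34073627, plus strand: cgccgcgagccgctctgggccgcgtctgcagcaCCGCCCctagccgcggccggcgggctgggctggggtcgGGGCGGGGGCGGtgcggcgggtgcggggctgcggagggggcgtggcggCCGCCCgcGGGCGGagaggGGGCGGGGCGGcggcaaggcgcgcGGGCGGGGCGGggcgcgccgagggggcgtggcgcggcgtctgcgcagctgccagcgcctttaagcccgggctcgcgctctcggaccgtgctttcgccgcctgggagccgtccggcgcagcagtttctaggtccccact

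Counted from 1 at the 5′ end, so that the first transcribed base follows position 250, the promoter of MRPL27 held ETS matches at positions 199 and 243, that of MRPL30 at 106 and that of MRPL3 at 219. The promoter of MRPL49 held an E box at 6 and an SP match at 287. That of MRPL51 held ETS matches at 132 and 147, SP matches at 201 and 238 and a YY1 match at 272, after the start. MRPS6 held 9 SP matches, some of which overlap each other, and no match to the other 4 motifs. The ETS letters thus stood in 1 of the promoters of the 2 members that rose in HCT116 and in 3 of those of the 4 that fell in SW620 (MRPL30, MRPL3 and MRPL54, not MRPL45).

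Across the 69 promoters, the ETS letters occurred in 29 (42.0%), against 10.7% of 27305 RefSeq promoters of the same length. The YY1 letters occurred in 20 (29%, against 3.03%). One or the other was found in 41 members (59.4%, against 13.1%), and both in 8, namely MRPL20, MRPL38, MRPL47, MRPL51, MRPL52, MRPS10, MRPS12 and MRPS18A. A match to one can share letters with a match to the other, but in 0 members did they overlap. Matches lay close to the start: between 60 bases before and 50 after it, 36.2% of members had the ETS letters (6.58% of all promoters) and 24.6% the YY1 letters (1.96%). The median YY1 match was centred 13 bases after the start. The other motifs differed less, with the SP letters in 60.9% of members and 44.6% of all promoters, the E box in 8.7% and 7.43%, and the NRF1 core in 4.35% and 2.19%. Members' promoters held a median of 24 CG dinucleotides, against 14, at a similar GC content (60.3% and 58.3%). These are matches of letters in a window of 300 bases and not measured binding. The comparison promoters were not matched to the members for expression or CG content.

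Members with and without a motif had similar median responses, a difference that was not tested. In HCT116, the median log2 fold change of AFZC over 5-FU was 0.14 in members with the YY1 letters and 0.02 in those without, and 0.08 and 0.02 for the ETS letters. In SW620 it was -0.08 with and -0.09 without the YY1 letters, and -0.12 and -0.05 for the ETS letters.

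Totals ran from 31991561 to 40590291 counts per library. The members together held 0.286% to 0.374% of the counts. Levels are given as CPM (counts per 1000000 counts), scaled by TMM factors of 1.02 to 1.07 in HCT116, 0.867 and 0.816 in SW620 with 5-FU and 1.11 and 1.07 in SW620 with AFZC. In SW620 the 100 most abundant genes took 24.1% and 24.4% of counts under 5-FU and 16.6% in both AFZC libraries, so the scaling matters most there. Of 10 colon epithelial markers, 7 were above a mean of 1 CPM in each HCT116 group and 9 in each SW620 group. CPM values of cell type markers are per library total, without TMM factors. In bulk RNA, fewer cells of a type and less RNA per cell cannot be told apart.

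Summed over the members, expression was 3250 and 2820 CPM in the HCT116 5-FU libraries and 3140 and 3120 with AFZC. It was 3570 and 3500 CPM in the SW620 5-FU libraries and 3100 and 3490 with AFZC. The large subunit genes alone summed to 1800 to 2060 CPM in HCT116 and 1890 to 2240 in SW620, and the small subunit genes to 1010 to 1170 and 1190 to 1350. The sums of AFZC and 5-FU libraries overlapped in HCT116. In SW620 the AFZC libraries lay below the 5-FU libraries, replicate 2 by less than the 5-FU libraries differed from each other. That direction depends on the scaling. As a share of all counts, the members held 0.31% and 0.286% in SW620 under 5-FU and more under AFZC, 0.344% and 0.374%.

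**Figure D1:**
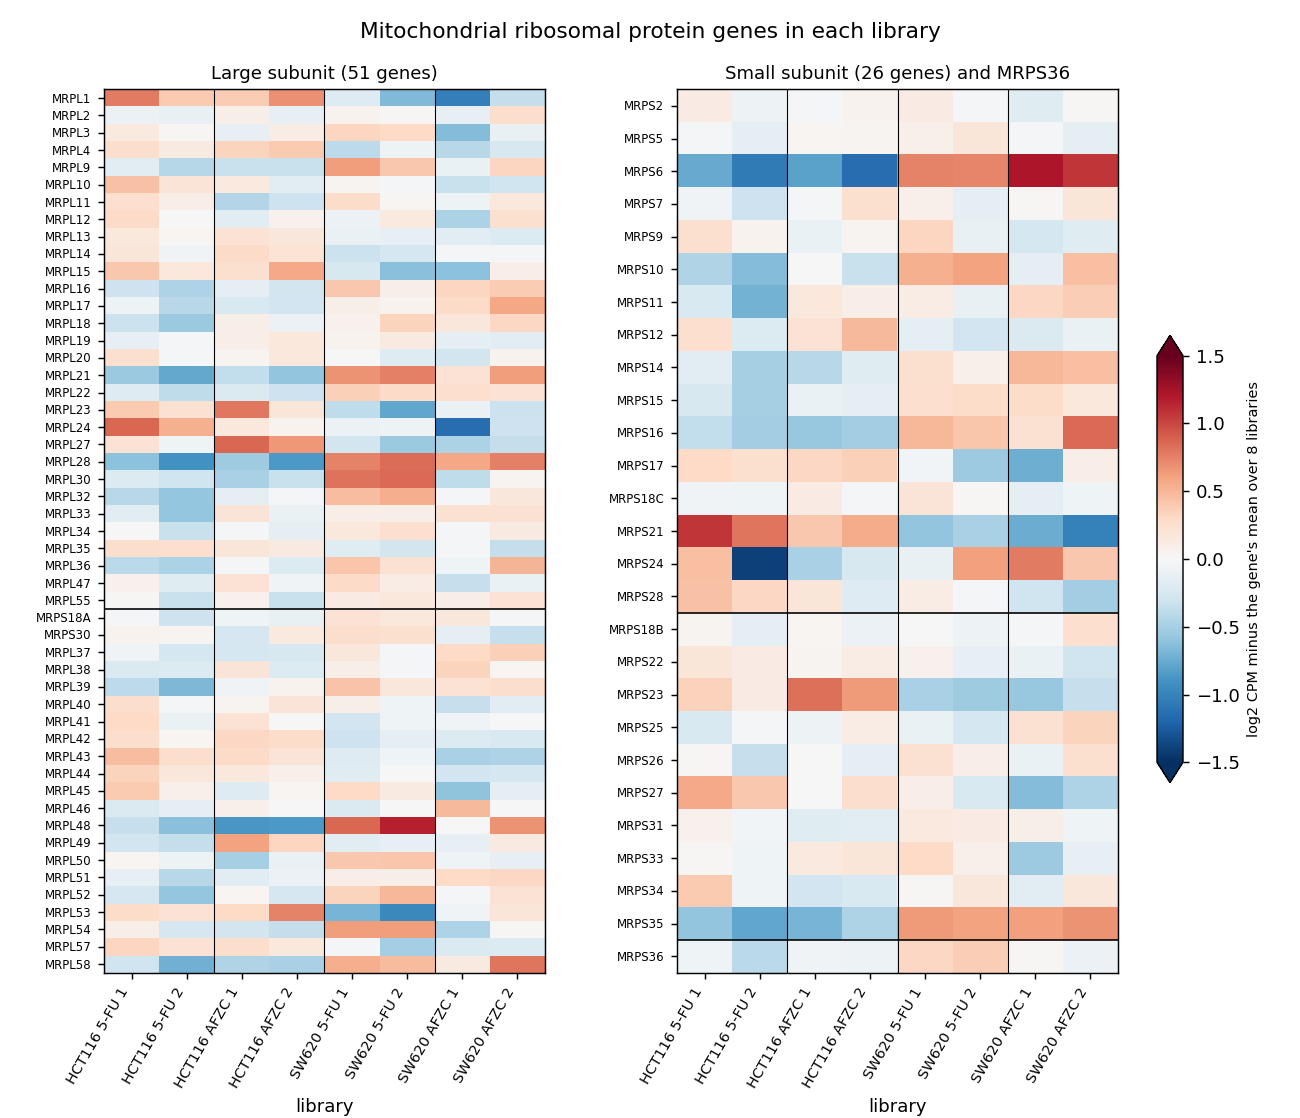
Each row is a gene and each column a library (2 replicates of 4 groups); colour gives log2 CPM minus the gene's mean over the 8 libraries, red above and blue below, and black lines separate groups and subunit classes. Most rows are pale, and the strongest colours divide HCT116 from SW620, as for MRPS6, MRPL28, MRPS35 and MRPS21.

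The members were far from equal in level per kilobase of exon. Length here is all exon bases of the deposited row, not that of a single mRNA, so it partly sets these levels. MRPL42, named after its values were seen, had 31007 counts but ranked 66 at 6.77 CPM per kilobase, with 16393 exon bases. Per kilobase of exon, the median member had 13.8 CPM over all libraries, the quartiles were 9.07 and 20.6, and 50 of 78 members lay within 2-fold of the median. The highest were MRPS34 (80.1 CPM per kilobase, 64.9 to 104 over libraries), MRPS26 (55.3, 43.2 to 64.7), both small subunit proteins specific to mitochondria, and MRPL18 (52.4, 34.9 to 64.9), a large subunit protein with a bacterial homologue. The ranges of MRPS26 and MRPL18 overlapped, and the lowest MRPS34 library stood level with the highest library of each.

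The lowest were MRPL38 (1.33 CPM per kilobase, 1.13 to 1.66), MRPL46 (0.93, 0.792 to 1.29) and MRPS24 (0.125, 0.043 to 0.194). MRPS24, which encodes a small subunit protein with a bacterial homologue, had 90 counts over all 8 libraries, and 23.2% of its exon bases are also in the readthrough gene URGCP-MRPS24, which had 0 counts. How reads in shared exons were assigned is not given in the sources used here. More than 5% of exon bases were shared with another gene in 34 members and more than 50% in 1, MRPL12 (68.2%), so levels of these members may be too low or, as the libraries did not keep strand, too high. Rows named as pseudogenes of the members (75 rows) held 0.291% as many counts as the members, and over 5% only for MRPS31 (17.3%) and MRPL45 (6.69%).

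The first comparison asked how AFZC changed these genes relative to 5-FU in HCT116. MRPL49 and MRPL27, both large subunit genes, rose, and the other 76 members did not pass the test. The 2 calls are 2.56% of the members, against a background of 9.61% called among all genes tested. Adjusted p-values come from the quasi-likelihood test of edgeR, with Benjamini-Hochberg adjustment over all 21378 genes and a threshold of 0.05. The median log2 fold change was 0.07 (0.00 over all genes), 45 members were above 0 and 33 below, and the 95% interval lay within 2-fold in either direction for 71 members.

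MRPL49, a large subunit protein specific to mitochondria (chromosome 11, 65122183 to 65127371, GRCh38), stood at 57.9 and 55.3 CPM under 5-FU and 108 and 88.7 under AFZC. Both AFZC libraries were above both 5-FU libraries, with group means of 56.6 ± 1.8 and 98.3 ± 13.6 CPM (SD, n = 2). The log2 fold change was 0.80 ± 0.156 (SE, edgeR adjusted p = 0.00773). In its exons, 11.6% of bases are shared with SYVN1 on the opposite strand, whose own log2 fold change was -0.18 (edgeR adjusted p = 0.551).

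MRPL27, a large subunit protein next to the peptidyl transferase centre (chromosome 17, 50367857 to 50373214), had 36.1 and 29.6 CPM under 5-FU and 56.6 and 48.6 under AFZC, again without overlap. Its log2 fold change was 0.68 ± 0.179 (edgeR adjusted p = 0.031), from 32.9 ± 4.57 to 52.6 ± 5.66 CPM (SD, n = 2). Both calls were lost without replicate 1 or 2 of HCT116 5-FU or without replicate 1 of HCT116 AFZC, where the edgeR adjusted p rose to as much as 0.0874 for MRPL49 and 0.249 for MRPL27, and the log2 fold changes kept their sign (0.64 to 0.91 and 0.52 to 0.83 over all 10 alternatives). In those 3 settings 0 members were called.

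No small subunit gene passed in HCT116 (0 of 26 with edgeR, 4 at an unadjusted p under 0.05, 2 in each direction). Over all genes tested, 9.61% were called, and 5293 of 21378 had an unadjusted edgeR p under 0.05. MRPS23, a small subunit protein specific to mitochondria, had 84.9 and 72.8 CPM under 5-FU and 119 and 104 under AFZC, a log2 fold change of 0.50 ± 0.154 that missed the threshold (edgeR adjusted p = 0.0581). MRPL11, at the base of the ribosome's stalk, had 46.6 and 42.1 CPM under 5-FU and 29 and 31.6 under AFZC (log2 fold change -0.55 ± 0.167, edgeR adjusted p = 0.0561). Neither gene's libraries overlapped between the agents. The 2 were chosen here after their values were seen, as the members nearest the threshold.

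In SW620, 4 members fell under AFZC and 0 rose: MRPL30, MRPL54, MRPL3 and MRPL45, all of the large subunit. The calls are 5.13% of the members, against a background of 18.6% of all genes. The median log2 fold change was -0.09 (0.03 over all genes), 31 members were above 0 and 47 below, and the 95% interval lay within 2-fold for 70 members. At an unadjusted p under 0.05 there were 4 higher and 13 lower, against 4055 higher and 2862 lower of all 21378 genes tested. Directions here depend on the scaling: with library totals in place of TMM factors, 12 members were higher and 1 was lower, at a median of 0.29, while the median of all genes moved to 0.40.

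MRPL30, a large subunit protein with a bacterial homologue (chromosome 2, 99181079 to 99197626), had 70.1 and 72 CPM under 5-FU and 30.6 and 41.2 under AFZC. Of the AFZC values, the lower lay inside the range of the 4 HCT116 libraries, 28.4 to 34.6 CPM, and the higher above it. The log2 fold change was -0.98 ± 0.173 (edgeR adjusted p = 0.00201), and the call was kept in all 10 alternatives, library totals included, with values from -1.21 to -0.61. Of its exon bases 19.5% are shared with AC079447.1, which had 156 counts against 11555 for MRPL30.

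MRPL3, a core protein of the large subunit near the peptidyl transferase centre (chromosome 3, 131462212 to 131502983), had 110 and 108 CPM under 5-FU and 56.2 and 81.2 under AFZC. The AFZC replicates differed widely but lay below both 5-FU libraries (log2 fold change -0.66 ± 0.18, edgeR adjusted p = 0.0225). MRPL54, specific to mitochondria, had 17.2 CPM in both 5-FU libraries and 8.13 and 11.3 under AFZC (-0.83 ± 0.242, edgeR adjusted p = 0.0311). MRPL45, a protein near the exit of the nascent chain tunnel, had 76.6 and 68.8 CPM under 5-FU and 41.2 and 56.8 under AFZC (-0.57 ± 0.184, edgeR adjusted p = 0.0473). In all 4 genes the lower AFZC value was that of replicate 1.

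The calls of MRPL3, MRPL54 and MRPL45 were lost without replicate 1 or 2 of SW620 5-FU and without replicate 1 of SW620 AFZC, which each left 1 member called, and with library totals, and that of MRPL45 also in the fit on the 2 groups compared (edgeR adjusted p up to 0.249, 0.183 and 0.462 over the alternatives). Without replicate 2 of SW620 AFZC, 8 members were lower and 0 higher. Marker sums are in CPM per library total, without TMM factors, unlike the members' CPM. In SW620, the 10 epithelial markers summed to 10900 to 11200 CPM under 5-FU and 4350 to 5050 under AFZC. Leukocyte markers summed to 5.01 to 6.65 CPM under 5-FU and 17.6 to 47.2 under AFZC, with 1 of 6 (LYZ) above 1 CPM in both groups, CD3E at 0 in both and PTPRC at 0 under AFZC. Endothelial markers summed to 4.29 to 4.77 and 14.5 to 20.3 CPM (2 of 4, PECAM1 and VWF, above 1 CPM, KDR at 0), and fibroblast markers to 45.8 to 46.7 and 52.9 to 90.5 CPM (3 of 6 above 1 CPM). Their part in the result was not tested.

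**Figure D2:**
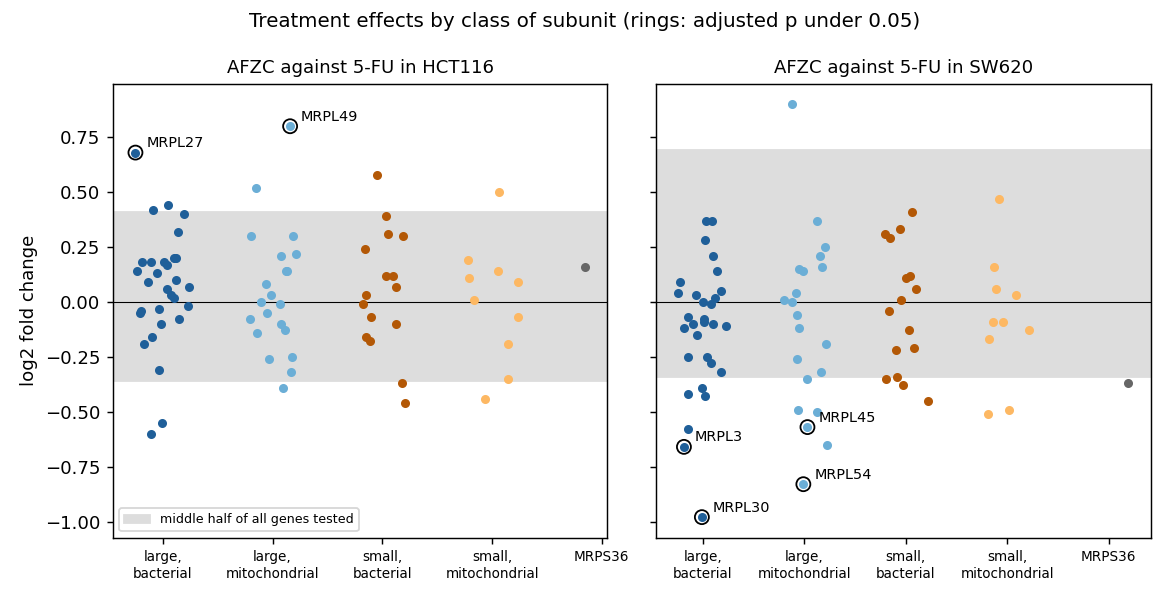
Points are members' log2 fold changes, AFZC over 5-FU, in HCT116 (left) and SW620 (right). They are grouped by subunit and by class (with a bacterial homologue or specific to mitochondria). Rings mark an edgeR adjusted p under 0.05 and the grey band spans the quartiles of all 21378 genes tested. The 2 ringed points in HCT116 are above 0 and the 4 in SW620 below 0, and most members lie inside the band.

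By class, the 2 calls in HCT116 were 1 of 30 large subunit genes with a bacterial homologue and 1 of 21 specific to mitochondria. The 4 calls in SW620 were 2 of 30 and 2 of 21. The small subunit had 0 of 16 and 0 of 10 in each line, with 4 members at an unadjusted p under 0.05 in SW620 too, and medians of 0.05 in HCT116 and -0.07 in SW620, against 0.06 and -0.09 in the large subunit. The difference between the subunits was not tested. The quartiles of the members' log2 fold changes were -0.10 and 0.19 in HCT116 and -0.32 and 0.11 in SW620, while those of all genes tested were -0.36 and 0.41, and -0.34 and 0.69.

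**Figure D3:**
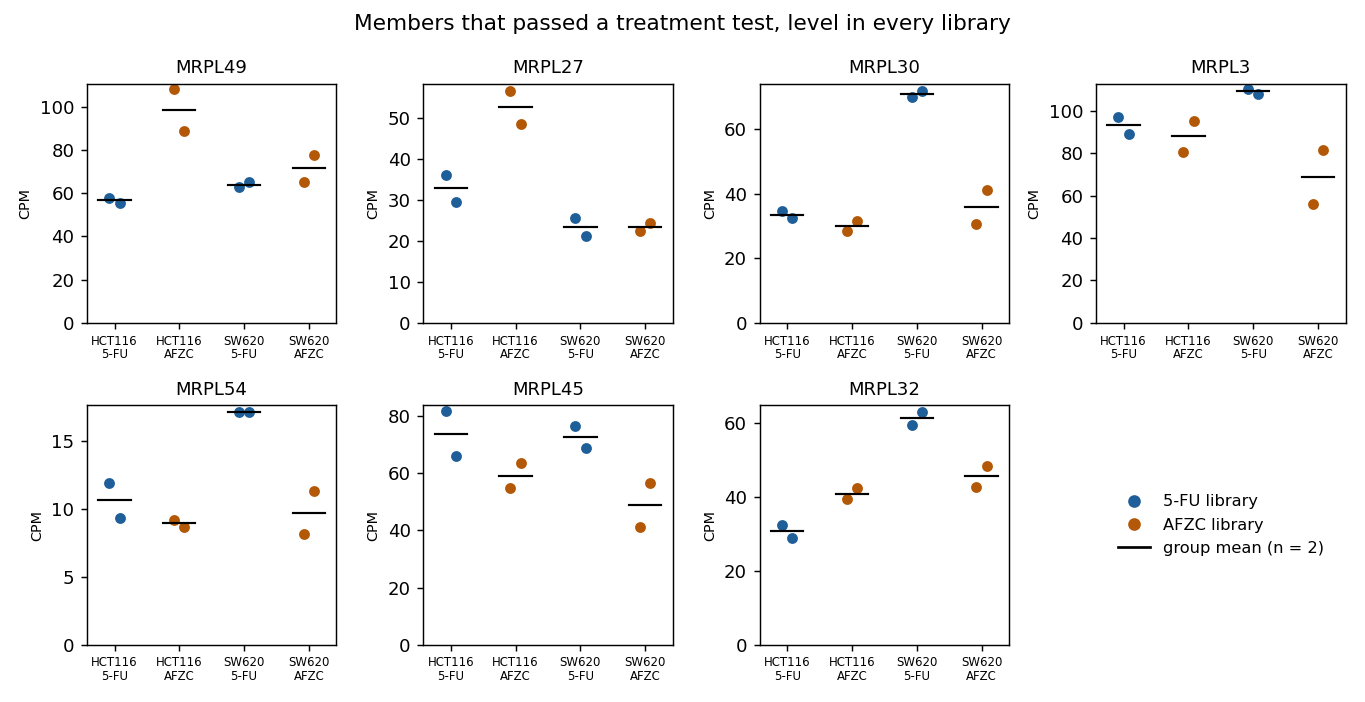
Each panel gives the CPM of a member in every library (blue, 5-FU; orange, AFZC) with the group mean of 2 libraries as a bar, on a linear axis from 0. MRPL49 and MRPL27 are highest in HCT116 with AFZC, MRPL30, MRPL54 and MRPL32 are highest in SW620 with 5-FU, and the means of MRPL3 and MRPL45 are lowest in SW620 with AFZC.

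A test of the difference between the 2 treatment effects asked whether the lines responded unequally. It called 2 members, both with a lower effect in SW620, which is 2.56% of the members against a background of 9.78%. MRPL32, a large subunit protein that a mitochondrial protease must cleave before assembly (chromosome 7, 42932200 to 42948958), had 32.5 and 28.8 CPM under 5-FU and 39.4 and 42.4 under AFZC in HCT116. In SW620 it had 59.6 and 63.1 CPM under 5-FU and 42.7 and 48.5 under AFZC, so the libraries moved apart in opposite directions. Neither effect passed by itself (0.42 ± 0.155, edgeR adjusted p = 0.113, and -0.43 ± 0.155, 0.0715), but the difference did (-0.85 ± 0.219, edgeR adjusted p = 0.0296).

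The other was MRPL30, with effects of -0.16 in HCT116 and -0.98 in SW620 and a difference of -0.83 ± 0.243 (edgeR adjusted p = 0.0494). Of 13 alternatives, 9 ended the call of MRPL30. Both calls were lost with library totals, with log2 differences of -0.49 and -0.48, and under that scaling 4 members had a higher effect in SW620 and 0 a lower one (median 0.19, 0.39 over all genes). Leaving out 1 library gave 0 calls in 6 of 8 cases, 1 without replicate 1 of HCT116 AFZC and 5 without replicate 2 of SW620 AFZC, with edgeR adjusted p-values up to 0.158 for MRPL32 and 0.218 for MRPL30. For MRPL49 and MRPL27, which passed in HCT116 alone, the difference did not pass (-0.64 and -0.68, edgeR adjusted p = 0.0881 and 0.112). Nor did it for MRPL3, MRPL54 and MRPL45 (-0.58, -0.58 and -0.25, edgeR adjusted p = 0.173, 0.32 and 0.611).

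Differences between the lines were larger and more frequent than those between agents. Under 5-FU, 21 members were higher and 14 lower in SW620 than in HCT116 (44.9% of the members, against a background of 54.8%). Under AFZC, 13 were higher and 14 lower (34.6%, against 49.3%). With library totals the split was 13 higher and 22 lower under 5-FU and 15 higher and 10 lower under AFZC, so the balance of directions rests on the scaling.

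These 2 line comparisons share no library. In both, 21 members were called, all in the same direction (10 higher and 11 lower in SW620), which is 60% of the calls under 5-FU and 77.8% of those under AFZC. Of all 78, 65 had the same sign, and the log2 fold changes correlated at r = 0.87 (Pearson, across 78 genes measured in the same 2 lines, given as a description). The matching figures over all genes tested were not computed, so this agreement is not shown to be particular to the members. The 10 higher in SW620 were MRPL16, MRPL21, MRPL22, MRPL28, MRPL48, MRPL58, MRPS6, MRPS14, MRPS16 and MRPS35. The 11 lower were MRPL1, MRPL4, MRPL15, MRPL23, MRPL24, MRPL27, MRPL42, MRPL43, MRPS21, MRPS23 and MRPS27. Some of the 21 share exon bases with another gene, as MRPL43 does with SEMA4G (32.7%, 10268 counts against 13017 for MRPL43).

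**Figure D4:**
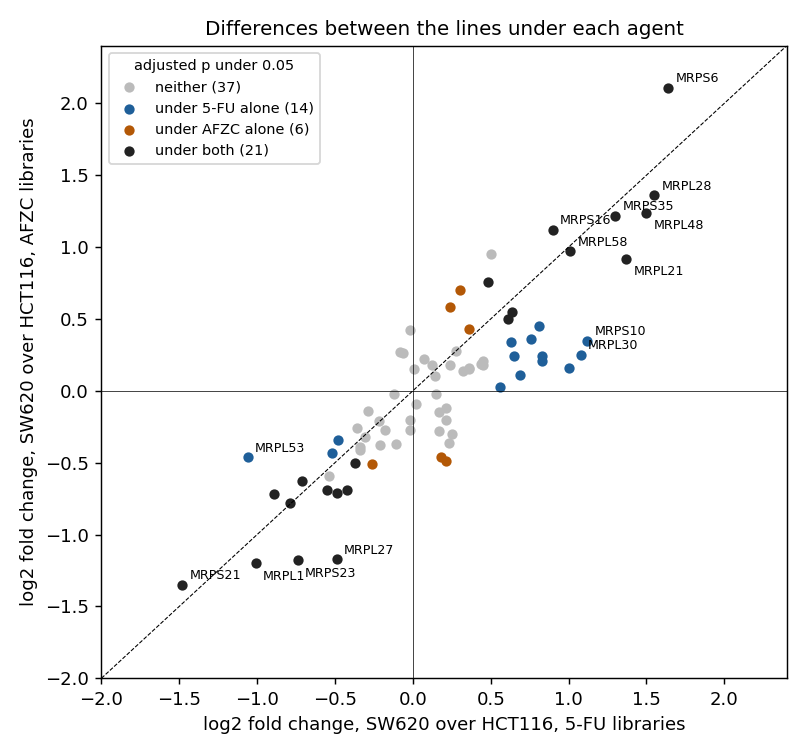
Each point is a member, with the log2 fold change of SW620 over HCT116 in 5-FU libraries on the x axis and in AFZC libraries on the y axis; the dashed line marks equality, colour shows under which agent the edgeR adjusted p was under 0.05, and members past 2-fold on either axis are named. The 21 black points called under both agents lie in the lower left and upper right, with MRPS6 farthest out at 1.64 and 2.11.

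MRPS6, a small subunit protein with a bacterial homologue (chromosome 21, 34073224 to 34143034), had 28.4, 22.9, 27.4 and 21.6 CPM in the 4 HCT116 libraries. In SW620 it had 80.3 and 79.4 CPM under 5-FU and 111 and 101 under AFZC. Every SW620 library was more than 2-fold above every HCT116 library. The log2 fold changes were 1.64 ± 0.172 under 5-FU (edgeR adjusted p = 4.69e-06) and 2.11 ± 0.175 under AFZC (6.68e-07), and both were kept in all 10 alternatives.

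MRPL28, a large subunit protein with a bacterial homologue, ran from 28.9 to 37.6 CPM in HCT116 and from 81.5 to 97 in SW620. Its log2 fold changes were 1.55 ± 0.171 and 1.36 ± 0.17 (edgeR adjusted p = 7.22e-06 and 2.67e-05). MRPL48, specific to mitochondria, had 15.8 to 22.9 CPM in HCT116 and 29.1 to 65.3 in SW620 (1.5 ± 0.222 and 1.24 ± 0.222, edgeR adjusted p = 8.8e-05 and 0.000488). The lines did not overlap in either gene. MRPS35, specific to mitochondria, held the tightest levels of this group, with 52 to 65.1 CPM in HCT116 and 136 to 143 in SW620 (1.30 ± 0.15 and 1.22 ± 0.15). MRPL21, with a bacterial homologue, followed with 27.2 to 35.7 and 54 to 78.2 CPM (1.37 ± 0.176 and 0.92 ± 0.174).

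In the other direction, MRPS21, a small subunit protein with a bacterial homologue, had 37.1 to 58.9 CPM in HCT116 and 13.9 to 20.1 in SW620. Its log2 fold changes were -1.48 ± 0.179 and -1.35 ± 0.179 (edgeR adjusted p = 1.57e-05 and 4.28e-05), the lowest of any member under either agent. MRPL1, of the mobile stalk beside the exit site, had 19 to 25 CPM in HCT116 and 7.15 to 12.8 in SW620 (-1.01 ± 0.269 and -1.20 ± 0.27). MRPS23 had 72.8 to 119 and 45.3 to 52.8 CPM (-0.74 ± 0.155 and -1.18 ± 0.156), and MRPL27 29.6 to 56.6 and 21.1 to 25.6 CPM (-0.49 ± 0.18 and -1.17 ± 0.181). For both, the gap was wider in the AFZC libraries, but the difference between the agents did not pass (edgeR adjusted p = 0.229 and 0.112).

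MRPL53, specific to mitochondria and low at 0.967 to 3.16 CPM, shares 45.2% of its exon bases with CCDC142 on the same strand. CCDC142 had 3009 counts against 567 for MRPL53, so the level of MRPL53 is uncertain. MRPL53 was lower in SW620 under 5-FU (-1.06 ± 0.392, edgeR adjusted p = 0.0348). That call was lost in 6 of 10 alternatives, among them DESeq2, no filter on low counts and the removal of any of the 4 libraries (adjusted p up to 0.174). MRPL23, by the nascent chain tunnel, had 13.2 to 20 CPM in HCT116 and 6.74 to 10.8 in SW620 (-0.89 ± 0.261 and -0.72 ± 0.258, edgeR adjusted p = 0.0117 and 0.0334). The 5-FU calls of MRPL1 and MRPL23 were lost without replicate 1 of HCT116 5-FU or replicate 2 of SW620 5-FU (edgeR adjusted p up to 0.0827 and 0.11). Under 5-FU the number of members called was 26 and 21 without replicates 1 and 2 of HCT116, and 23 and 20 without replicates 1 and 2 of SW620.

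Members with roles beyond a structural subunit were followed whatever their result. MRPL12, which is part of the stalk that recruits translation factors and has also been described as a partner of the mitochondrial RNA polymerase, had 11.7 to 19.7 CPM over all libraries. It passed in none of the 5 comparisons, with treatment effects of -0.19 (95% interval -0.74 to 0.35) in HCT116 and -0.10 (-0.64 to 0.44) in SW620. MRPL58, the hydrolase that frees stalled ribosomes, had effects of 0.03 (-0.44 to 0.51) and 0.00 (-0.47 to 0.47). It was higher in SW620 under both agents, at 34.1 to 54.4 CPM against 18.9 to 25.2 in HCT116 (1.01 ± 0.221 and 0.97 ± 0.221, edgeR adjusted p = 0.00186 and 0.00272).

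MRPS36 had 13.6 to 17.4 CPM in HCT116, 22.3 and 23.2 in SW620 with 5-FU and 18.3 and 16.9 with AFZC. It was higher in SW620 under 5-FU (0.56 ± 0.196, edgeR adjusted p = 0.0279), a call lost in 5 of 10 alternatives, among them library totals (0.26) and the removal of replicate 2 of HCT116 5-FU or of either SW620 5-FU library (adjusted p up to 0.284). MRPS12, a protein of the decoding centre, was lower in SW620 under AFZC (33.5 and 36.1 CPM, against 44.9 and 54.3; -0.51 ± 0.184, edgeR adjusted p = 0.0352). Its call was lost without replicate 2 of HCT116 AFZC, without either SW620 AFZC library, with library totals and in the fit on those 2 groups (adjusted p up to 0.207).

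The 3 paralogues MRPS18A, MRPS18B and MRPS18C descend from 1 bacterial protein, and MRPS18A sits in the large subunit. In the classes used here, MRPS18C alone is placed with the bacterial homologues, and MRPS18A and MRPS18B are placed as specific to mitochondria. Per kilobase, MRPS18B stood at 37.9 CPM, MRPS18A at 12.7 and MRPS18C at 1.43, and their ranges over libraries did not overlap (34.5 to 44.8, 10.1 to 14.7 and 1.3 to 1.63). None passed in any of the 5 comparisons, and their treatment effects ran from 0.01 to 0.12 in HCT116 and from -0.21 to 0.16 in SW620. With library totals, MRPS18B alone passed in SW620 (0.53). Of the exon bases of MRPS18A and MRPS18C, 47% and 40.2% are shared with RSPH9 and ABRAXAS1, so their levels are uncertain. Levels per kilobase also rest on the lengths used, 1888, 1284 and 4866 exon bases for MRPS18B, MRPS18A and MRPS18C.

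Many members start next to another gene, when the outer end of each deposited row is taken as the start. In 28, a protein-coding gene tested here starts within 1000 bases on the opposite strand. This makes 27 pairs, as MRPL46 and MRPS11 are each other's partner. RefSeq starts can lie elsewhere, as for MRPL11, whose pair is kept in these counts. In SW620, 5 of the partners rose under AFZC and 1 fell, and in HCT116 2 rose and 0 fell. These are 21.4% and 7.14% of the partners, near the backgrounds of 18.6% and 9.61%. None of the members beside these partners passed the test in the same line. Over the 27 pairs, log2 values of member and partner correlated at r = 0.56 for SW620 against HCT116 under 5-FU and 0.17 under AFZC, and at 0.35 and 0.16 for the treatment effect in HCT116 and SW620. These are correlations across genes of the same 8 libraries and are given as a description.

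MRPL57, whose promoter is printed above without a match, starts 43 bases from SKA3, a kinetochore gene. In SW620, SKA3 rose by a log2 fold change of 2.92 (95% interval 2.42 to 3.41, edgeR adjusted p = 7.67e-06), while MRPL57 was at 0.04 (-0.36 to 0.44). EME1, a subunit of a DNA endonuclease, starts 6 bases from MRPL27 and rose by 2.68 (2.18 to 3.18, edgeR adjusted p = 1.27e-05), with MRPL27 at 0.00 (-0.39 to 0.39). MTBP, an MDM2 binding protein, rose by 1.93 (1.39 to 2.47, edgeR adjusted p = 0.000259), with its partner MRPL13 at -0.07 (-0.40 to 0.26). In all 3 pairs the intervals of partner and member lie apart.

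The remaining rises in SW620 were PELI3 (1.08, paired with MRPL11 at -0.11) and NCAPD2 (1.01, beside MRPL51 at 0.21), with edgeR adjusted p-values of 0.00633 and 0.0104. The RefSeq promoter of MRPL11 lies at 66438799 to 66439098, away from the outer end of its row (66466738), so PELI3 may not start beside it. NCAPD2 also shares 31.3% of the exon bases of MRPL51. TMEM63B, beside MRPL14, fell in SW620 (-0.53, edgeR adjusted p = 0.0265) and rose in HCT116 (1.19, 0.00058), where MRPL14 was at 0.18. FAU, beside MRPL49, was at -0.09 in HCT116 (edgeR adjusted p = 0.824) where MRPL49 rose, and MITD1, beside MRPL30, at -0.14 in SW620 (0.689) where MRPL30 fell. PSMA2, beside MRPL32, had effects of 0.25 and -0.09.

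**Figure D5:**
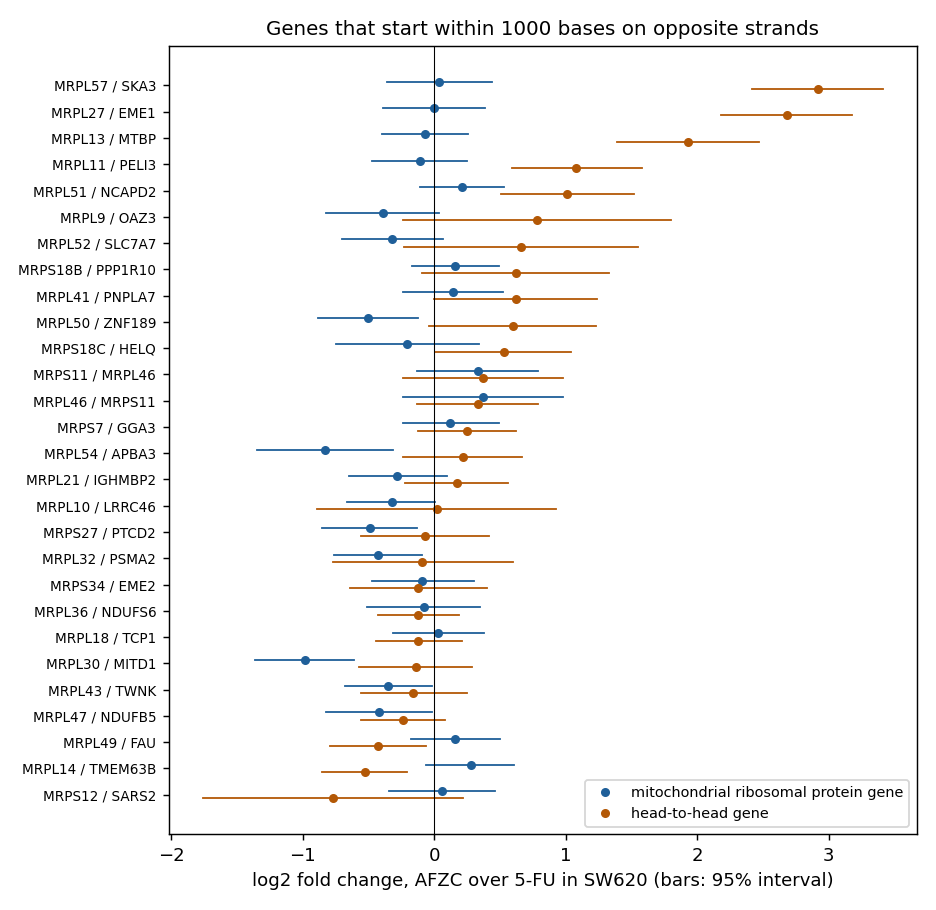
Rows are the 28 members with a head-to-head gene; blue and orange points give the log2 fold change of AFZC over 5-FU in SW620 for the member and for its partner, and bars the 95% interval. The partners at the top reach 2.92, while every member lies between -0.98 and 0.37.

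Over a wider window of 2 megabases on each side, the other tested genes (8 to 210 of them, median 55) gave each member a local median. Across the 78 members, the member's own line difference correlated with that median at r = 0.20 under 5-FU and 0.30 under AFZC, and its treatment effect at 0.30 in HCT116 and 0.10 in SW620. These are descriptions across genes, some of which share a window and all of which share libraries.

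Other genes that build and serve the mitochondrial ribosome were read from lists. Subunits of the same ribosome that carry other names were called in 0 of 5 cases in either line (0 and 1 at an unadjusted p under 0.05). In HCT116, assembly factors had 1 of 25 higher and 2 lower (12%, against the background of 9.61%). METTL15, a methyltransferase of the small subunit rRNA, fell from 50.7 ± 2.13 to 27.4 ± 4.51 CPM (SD, n = 2; log2 fold change -0.89 ± 0.17, edgeR adjusted p = 0.0069), and RPUSD4, a pseudouridine synthase of the large subunit rRNA, from 37.1 ± 0.759 to 21.2 ± 5.5 (-0.80 ± 0.197, 0.0224). The third, DHX30, an RNA helicase, rose by 0.52 ± 0.141 (edgeR adjusted p = 0.0365). Translation factors had 0 of 17 and aminoacyl-tRNA synthetases 0 of 20 called in HCT116, with 4 and 5 at an unadjusted p under 0.05.

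In SW620, assembly factors had 4 of 25 higher and 3 lower (28%, against the background of 18.6%). RPUSD4 fell there too, from 57.2 ± 9.1 to 29.3 ± 1.42 CPM (-0.96 ± 0.196, edgeR adjusted p = 0.00495), and MPV17L2 rose from 7.2 ± 3.01 to 14.2 ± 3.87 (0.98 ± 0.287, 0.032). Of 17 translation factors, 1 was higher and 3 were lower. MRRF, which recycles ribosomes, fell from 53.6 ± 1.72 to 29.1 ± 7.88 CPM (-0.88 ± 0.189, edgeR adjusted p = 0.00676), and MTIF3, an initiation factor, from 21.1 ± 0.312 to 12.5 ± 0.296 (-0.76 ± 0.22, 0.0304). Of 20 synthetases 1 rose and 1 fell: AARS2, for alanine, from 13.6 ± 2.2 to 28.2 ± 4.64 CPM (1.04 ± 0.204, edgeR adjusted p = 0.00393) and WARS2, for tryptophan, from 20.5 ± 0.983 to 10 ± 2 (-1.03 ± 0.229, 0.00814).

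Also called in SW620 were the assembly factors NOA1 and NGRN (-0.83 and -0.78) and ERAL1, MRM2 and MRM3 (0.54, 0.68 and 0.67), and the translation factors TUFM, which brings in aminoacyl-tRNA (-0.60), and TACO1, an activator of the translation of MT-CO1 (0.71). These 7 genes and DHX30 were named after their values were seen.

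The mRNAs that this ribosome translates were also read. Of the 13 mRNAs encoded in mitochondria, 6 fell and 0 rose in SW620 (46.2%, against the background of 18.6%; median log2 fold change -0.60), where the ribosomal protein genes had a median of -0.09. With library totals in place of TMM factors, tried on this list after seeing the data, 1 fell and 0 rose, at a median of -0.22 (0.40 over all genes). Their summed share of all counts was 4.24% and 3.45% under 5-FU and 3.81% and 3.07% under AFZC, and these ranges overlap. MT-ATP8, a subunit of ATP synthase, went from 24.3 ± 8.86 to 9.36 ± 1.01 CPM (-1.38 ± 0.24, edgeR adjusted p = 0.00192), and MT-ND4L, of complex I, from 804 ± 15.5 to 415 ± 64.5 (-0.95 ± 0.208, 0.00753). In HCT116, 1 of 13 rose and 0 fell (background 9.61%): MT-ND1, of complex I, from 2400 ± 76.1 to 3870 ± 291 CPM (0.69 ± 0.187, edgeR adjusted p = 0.0362). MT-ATP8 and MT-ND4L each overlap the next gene on a shared RNA, and nuclear copies of mitochondrial genes exist, so single values of this list are uncertain. Whether these mRNAs and the ribosomal protein genes differ as groups was not tested.

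Genes of mitochondrial DNA maintenance and transcription had 1 of 19 higher and 1 lower in each line. TOP1MT, the mitochondrial topoisomerase, fell in both (-0.56 ± 0.141 and -0.95 ± 0.142, edgeR adjusted p = 0.0263 and 0.000777), POLG, the mitochondrial DNA polymerase, rose in HCT116 (0.58 ± 0.161, 0.0402), and MGME1, a nuclease of mitochondrial DNA, rose in SW620 (1.01 ± 0.18, 0.00233). Among 9 regulators of mitochondrial biogenesis, ESRRA, a nuclear receptor, rose in HCT116 from 56.9 ± 6.81 to 94.9 ± 7.96 CPM (0.74 ± 0.181, edgeR adjusted p = 0.0223), and 0 were called in SW620 (3 at an unadjusted p under 0.05, all lower). Of 10 proteases and chaperones, CLPX rose in HCT116 (0.55 ± 0.143, edgeR adjusted p = 0.0289). In SW620, HSPD1 and TRAP1 fell (-0.74 ± 0.19 and -0.59 ± 0.168, 0.0172 and 0.0294).

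Several calls of these other genes were lost when a single library was left out, which leaves its group without a replicate. In HCT116, RPUSD4, ESRRA, MT-ND1, POLG, TOP1MT and CLPX lost theirs without replicate 1 or 2 of 5-FU or replicate 1 of AFZC, and METTL15 without replicate 1 of either (edgeR adjusted p up to 0.308, for POLG). In SW620, MT-ATP8, AARS2, MGME1 and TOP1MT were kept in all 10 alternatives, and MT-ND4L in all but library totals (-0.57, edgeR adjusted p = 0.0608). HSPD1 and TRAP1 lost theirs without either 5-FU library or AFZC replicate 1, MTIF3 without any of the 4, RPUSD4 without 5-FU replicate 1, WARS2 without replicate 1 of either agent, MRRF without AFZC replicate 1, and MPV17L2 without replicate 2 of either agent (adjusted p up to 0.366, for TRAP1). RPUSD4, MRRF, MTIF3, WARS2, HSPD1 and TRAP1 also lost their calls with library totals, and TRAP1 and MPV17L2 theirs in the fit on the 2 groups compared (edgeR adjusted p = 0.0541 and 0.0706).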

How the data were processed

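Gene expression was measured by RNA-seq of poly(A)-selected RNA in 8 libraries without strand information, per the labels' protocols. The authors deposited raw read counts per gene, in a table with the layout of featureCounts, per the file headers. Build GRCh38 and the tools HISAT2, STAR, FastQC, Trimmomatic, cutadapt, featureCounts, edgeR and DESeq2 appear in the submitters' processing notes. For the aligner behind the counts, and for shared or multiply aligned reads, the choice is not given in the sources used here.

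Both the members and the gene lists were chosen with earlier results of these data known. Counts passed edgeR's filterByExpr (minimum count 10) and were scaled by TMM, and all 8 libraries entered 1 quasi-likelihood fit with a mean for each of the 4 groups (edgeR 4.0.16 on limma 3.58.1, R 4.3.3, version 1.17.8 of data.table), with two-sided tests, Benjamini-Hochberg adjustment and a threshold of 0.05. It left 4 residual degrees of freedom, and the common coefficient of variation was 19.9%. The standard error is the log2 fold change divided by the square root of F. The steps were tested on simulated counts. Named members were up to 6 called in each direction per treatment comparison and difference, up to 4 per line comparison, the 3 highest and 3 lowest levels, 7 fixed genes, and up to 2 called genes per other list. Other members are named only in complete sets of calls, as promoter examples, as head-to-head pairs or where stated. Gene positions are as deposited and match GENCODE release 29. Promoters are from RefSeq. Alternatives were RLE size factors, library totals, no filter, DESeq2 1.42.0, a replicate block, leaving out each replicate, a fit on the groups compared, and members with little shared exon sequence. No label says that replicate libraries are separate cultures, and p-values may then reflect technical spread alone.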

Additional observations from a re-analysis of the deposited data

Results flagged for a closer look

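The AFZC effect, relative to 5-FU, differed between the lines for 6 of the named genes by edgeR's test of the difference (SW620 minus HCT116, log2). That test called 9.78% of all genes tested. Among the ribosomal protein genes, those that differed were MRPL32 (-0.85, edgeR adjusted p = 0.0296) and MRPL30 (-0.83, 0.0494). Of 13 alternatives, 7 ended the call of MRPL32 and 9 that of MRPL30. Among the other genes they were METTL15 (1.04, edgeR adjusted p = 0.018), MT-ND4L (-1.38, 0.011), MT-ATP8 (-1.45, 0.0167) and ESRRA (-1.28, 0.00816). For these other genes the difference was not rerun under the alternatives. METTL15 fell in HCT116 and was at 0.14 in SW620. ESRRA rose in HCT116 and was at -0.54 in SW620, where the test did not pass (edgeR adjusted p = 0.0543).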

How the results depend on the processing

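In HCT116, 2 members were called in the treatment comparison, 4 without a filter on low counts, 4 in the fit on the 2 groups compared, 1 among members with at most 5% of exon bases shared (chosen after seeing the data), and 0 to 2 when a replicate was left out. In SW620 the 4 calls became 13 with library totals, 7 without a filter and 1 to 8 when a replicate was left out. The 2 calls for the difference of effects became 4 with library totals, 1 among members with little shared exon sequence and 0 to 5 when a replicate was left out. Between the lines, 35 members were called under 5-FU and 20 to 26 when a replicate was left out, and 27 were called under AFZC and 17 among members with little shared exon sequence. With library totals, the 6 mitochondrial mRNAs called in SW620 became 1. RLE size factors changed the call of 0 of 78 named results and DESeq2 that of 1, with 3, 6, 2, 31 and 26 members called in the 5 comparisons. No named result reversed its direction while called. Throughout, member counts under an alternative are given without the share of all genes called under it, and were not compared with that share.

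What same-numbered libraries share beyond the number is not known here. Across all genes tested, their deviations correlated at -0.10 to 0.10 between groups, which does not exclude shared handling. With a replicate block, 2, 3, 1, 33 and 25 members were called in the 5 comparisons. With it MRPL45 in SW620, MRPL30 in the difference and POLG in HCT116 had edgeR adjusted p-values of 0.0597, 0.0574 and 0.0547 and were not called. With 2 libraries per group, the median standard error of a member's treatment effect was 0.176 to 0.177 on the log2 scale. The 95% interval lay within 2-fold for 71 of 78 members in HCT116 and 70 in SW620. In these members it was smaller changes that could be missed. Changes of 2-fold and more could be missed in others. Examples are MRPS24, with few counts (standard errors of 0.835 in HCT116 and 0.788 in SW620), and MRPL24, with 6630 counts. The 95% interval of MRPL24 was -1.12 to -0.08 in HCT116 and -1.11 to -0.06 in SW620. Over all genes of the simulated counts, 37% of 2-fold changes were recovered in the HCT116 comparison.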
